A study of Nasonia vitripennis with 15 samples.

Results

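In testes of Nasonia vitripennis, a parasitoid wasp, 87 genes had transcripts that changed apart between 0 h and 24 h at 25 °C. Their transcripts were counted one by one in 15 RNA-seq libraries, against the RefSeq models of each gene. A gene entered the set when at least 2 of its transcripts reached a median of 5 CPM (the usual scaling of a transcript's counts to the total of its library) at 0 h or at 24 h at 25 °C, and when 2 of these transcripts differed by at least 1 in their log2 ratio of 24 h over 0 h (medians of 3 pools, with 1 CPM added). Of the 13999 genes in the counts, 4721 had 2 or more transcripts, 317 had 2 or more at that level, and 87 of the 317 had the difference. The members were thus chosen on the measured medians of the 0 h and 24 h pools at 25 °C. Everything said of those 2 groups is a description, with no test.

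All libraries came from males of the AsymC strain, as pools of dissected testes from pupae, and each of the 5 groups had 3 pools, named A, B and C. White nymphs were sampled at 0 h (25 °C) and after 10 h at 25 °C or at 36 °C. White nymphs with red eyes were sampled after 24 h at 25 °C or at 36 °C. The labels give 60 testes per pool, a number that the methods state for males, and nothing says that the pools were separate rearings, so that p-values measure the spread between these pools only.

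One gene can give rise to several transcripts through alternative promoters, alternative splicing and alternative ends. In this wasp the testis of white nymphs holds primary spermatocytes and that of red-eyed nymphs secondary ones, and in haploid males of this order the first phase of meiosis is abortive. A change of promoter or exon can alter the protein or only its untranslated ends. A change in a transcript's share can leave the gene's total untouched, and is lost when counts are summed per gene.

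Here the share of a transcript is its part of all counts of its gene, and the pair share is the part of the rising transcript in the counts of a gene's pair. The pair is made of the 2 qualifying transcripts that differed most: the rising one had the higher log2 ratio of 24 h over 0 h at 25 °C, and the falling one the lower. These are shares of assigned reads, not of molecules. How reads that fit several transcripts of a gene were assigned is not stated in the sources used here, and no transcript lengths were used, so that levels of 2 transcripts or 2 genes are not compared. A share rested on a median of 152 counts of the gene (range 6 to 8227), with an exact binomial 95% interval of ±6.66 points at the median, which covers counting error only. In pooled testes, fewer cells of a type and less RNA per cell cannot be told apart.

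Library totals ran from 1749769 to 7154421 counts, and the members held 0.702% to 0.787% of them. Some libraries stood apart from their group, pool B at 10 h at 36 °C the most. Pool B at 10 h at 36 °C had the highest pair share of its 3 pools in 76 of 87 members. It differed from pools A and C in its transcript counts with a chi-square per degree of freedom of 97.5 and 62.3, while A and C differed from each other by 4.33. The summed level of 10 germ line and sperm genes moved the same way. It was 9814 CPM in this pool, against 4039 in pool A and 3281 in pool C, and none of the 10 was at 0 in any library. The sum was 3383 to 6716 CPM at 0 h, 6606 to 9953 at 10 h and 9874 to 11308 at 24 h at 25 °C, and 8474 to 9603 at 24 h at 36 °C. Abundant genes weigh most in it, such as the dynein NV16467 with a median of 3195 CPM at 24 h at 25 °C. Of the 10, nanos went the other way, with medians of 6.29, 4.36 and 3.13 CPM at 0 h, 10 h and 24 h at 25 °C. Cyclin-A (NV14248) had 327, 510 and 454 CPM and Cdk1 36.5, 74.0 and 69.0 CPM, both lower at 24 h than at 10 h. The gene bol was listed too but is not among the 10. Of 50 cuticle genes 5 were at 0 throughout, and the others summed to 894 CPM in pool B at 10 h at 36 °C, against 184 and 169 in pools A and C, to 137 to 229 at 0 h, to 171 to 518 at 10 h and 640 to 9805 at 24 h at 25 °C, and to 257 to 1523 at 24 h at 36 °C. The nerve marker did not exceed 0.551 CPM, the 3 fat body genes ranged from 15.5 to 75.2 CPM, the 2 muscle genes from 287 to 525, and the 260 sensory genes, 48 of them at 0 throughout, from 302 to 495. The part of these cell types in the changes described here was not tested. Results that use pool B at 10 h at 36 °C are given with and without it, except counts of members whose pools did not overlap.

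In the groups that chose the members, 2 libraries also stood apart. Pool B at 0 h had the highest pair share of its 3 pools in 67 of 87 members, and a germ line and sperm sum of 6716 CPM against 3745 in pool A and 3383 in pool C. Its chi-square per degree of freedom was 31.3 against pool A and 16.3 against pool C, which differed from each other by 7.36. Pool A at 24 h at 25 °C had a cuticle sum of 9805 CPM against 640 in pool B and 695 in pool C, with a chi-square per degree of freedom of 14.4 and 20.4, where B and C differed by 3.67. Without pool B at 0 h the rule found 100 genes, 77 of them among the 87 members. Without pool A at 24 h it found 87 genes, of which 73 were members. At 10 h at 25 °C, pool B also had the highest pair share of its 3 pools in 51 of 87 members. Its germ line and sperm sum was 9953 CPM against 6606 in pool A and 7861 in pool C. Its cuticle sum was 518 CPM against 196 and 171. Pool B was thus most often the highest in pair share at 0 h and at 10 h at both temperatures. At 24 h it was highest in 21 members at 25 °C and in 31 at 36 °C. The cause was not tested.

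Across the members, the median pair share rose in the course of 24 h at 25 °C. The pairs were chosen on the 0 h and 24 h pools, so that a rise between these was set by the choice. That choice also favours 10 h values between them, so that the order of the 3 times is a description. The median pair share over the 87 genes was 31.8%, 38.8% and 25.7% in pools A, B and C at 0 h. It was 42.4%, 53.5% and 47.8% at 10 h and 59.0%, 58.3% and 56.3% at 24 h. All pools at 24 h lay above all pools at 10 h, and these above all at 0 h. At 36 °C it was 36.1%, 52.9% and 28.6% at 10 h, where pool B lay among the 25 °C pools of 10 h and the other 2 among those of 0 h, and 43.7%, 54.2% and 54.1% at 24 h. As means of these library medians (± SD, n = 3), the groups stood at 32.1% ± 6.55 at 0 h, 47.9% ± 5.54 at 10 h and 57.9% ± 1.40 at 24 h at 25 °C, and at 39.2% ± 12.4 at 10 h and 50.7% ± 6.03 at 24 h at 36 °C. Among the 230 other genes with 2 or more transcripts at the same level, pairs chosen in the same way had means of 43.8% ± 3.69, 48.3% ± 1.84, 51.0% ± 1.29, 44.0% ± 3.85 and 47.1% ± 0.986 in the same order of groups.

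**Figure D1:**
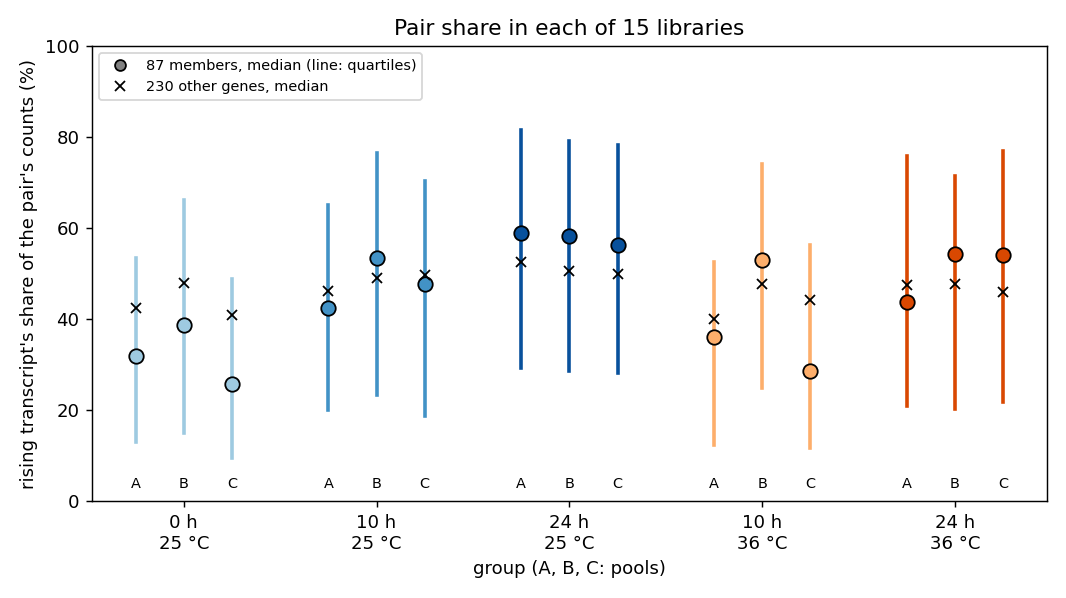
Median pair share (rising transcript's percent of the counts of both transcripts) in each of 15 libraries, by group and pool. Circles are medians over the 87 members with lines from the lower to the upper quartile, and crosses are medians over the 230 other genes. At 25 °C the circles sit at 25.7% to 38.8% at 0 h and at 56.3% to 59.0% at 24 h, and pool B at 10 h at 36 °C sits at 52.9%, above its mates at 36.1% and 28.6%.

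Within most genes the 2 transcripts moved in opposite directions. Of the 87 pairs, 57 had 1 transcript that was higher at 24 h than at 0 h at 25 °C and 1 that was lower. In 6 of these both moved by at least 1 on the log2 scale, in 17 only the rising one did, in 13 only the falling one, and in 21 neither. In 12 pairs both transcripts were higher at 24 h by unequal amounts, and in 18 both were lower. The difference between the pair's log2 ratios had a median of 1.40 (range 1.002 to 3.56) and was at least 2 in 15 genes. The gene's summed level stayed within 0.5 on the log2 scale in 34 members, was higher by at least 1 in 12 and lower by at least 1 in 12.

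The transcript with the most counts of its gene was not the same at both ends of the series in 26 of 87 members. The rising transcript held the most counts in 24 members at 0 h, 39 at 10 h and 46 at 24 h at 25 °C, and in 31 at 10 h and 41 at 24 h at 36 °C. The falling one did so in 57, 40, 33, 51 and 38 members. Most members had few transcripts in play: 70 had 2 that reached the level, 14 had 3 and 3 had 4 or more, up to 14 in NV13613, a gene with 18 models. In all, 206 of the members' 370 transcripts qualified.

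**Figure D2:**
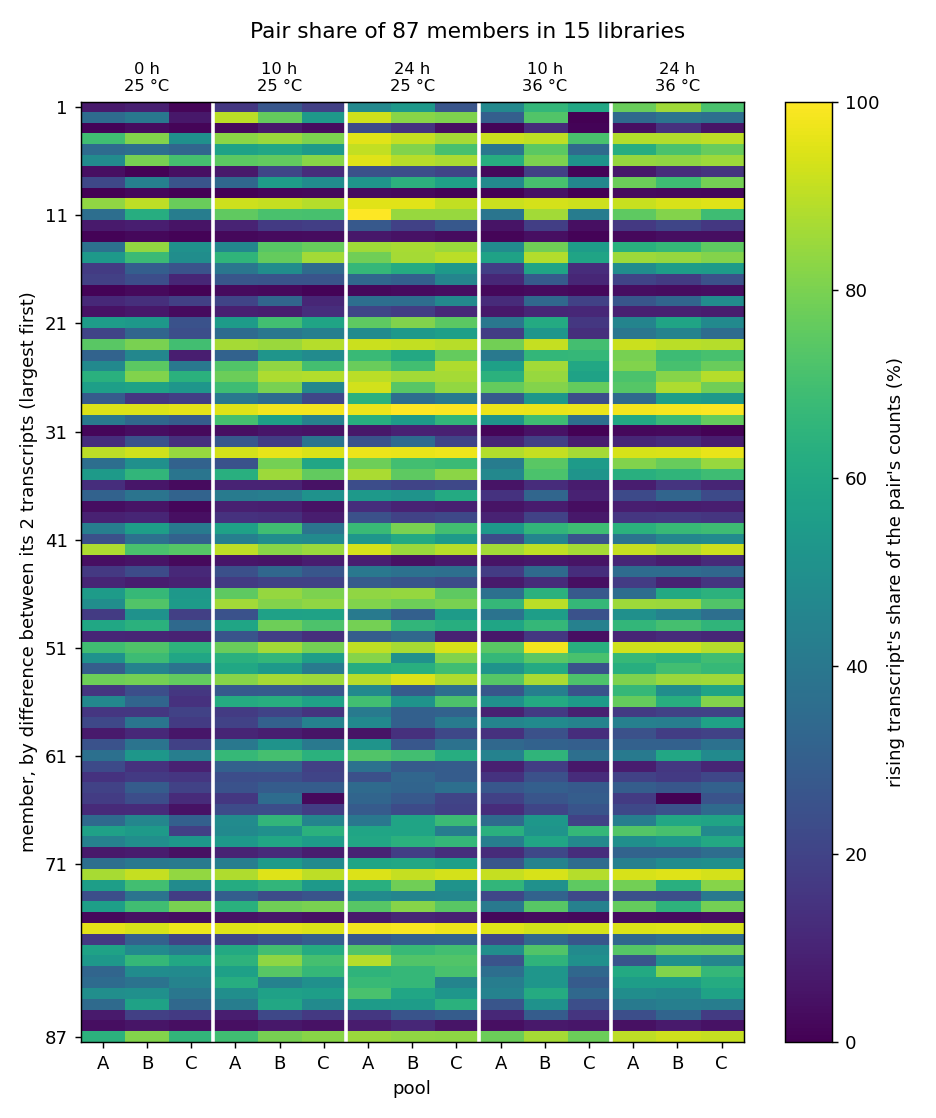
Pair share (colour, percent) of the 87 members, 1 row each and ordered from the largest difference between the 2 transcripts at the top, in the 15 libraries (columns, pools A to C of each group). Most rows brighten from 0 h to 24 h at 25 °C, from a library median of 25.7% to 38.8% up to 56.3% to 59.0%, and the column of pool B at 10 h at 36 °C is brighter than its neighbours.

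NV12150 is the ortholog of the Drosophila genes aub and piwi, Argonaute proteins that bind piRNAs and silence transposons in the germ line. It has 2 transcripts. The rising one (XM_001602334.3) held 35.9%, 62.3% and 42.4% of the gene's counts in pools A, B and C at 0 h. It held 75.6%, 71.4% and 71.1% at 10 h at 25 °C and 100%, 84.6% and 84.4% at 24 h. Every pool at 24 h at 25 °C exceeded every pool at 0 h. The falling transcript (XM_008218648.1) went from 41, 63 and 19 counts at 0 h to 0, 4 and 5 at 24 h, and 0 of 18 counts in pool A allow a share of up to 16.7%. At 36 °C the rising transcript's share was 39.0%, 85.9% and 42.1% at 10 h, with pool B far above the others, and 75.3%, 81.6% and 68.8% at 24 h.

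mei-P26 (NV10527) corresponds to a Drosophila TRIM-NHL protein that restrains growth of dividing germ cells and acts in meiosis. Both transcripts of its pair were lower at 24 h than at 0 h at 25 °C, by unequal amounts. The log2 ratio of 24 h over 0 h at 25 °C was -0.996 for XM_001608102.3 and -3.11 for XM_008217734.1. The first held 37.3%, 83.7% and 50.5% of the counts at 0 h, 46.2%, 73.9% and 76.6% at 10 h and 85.7%, 87% and 84.8% at 24 h. The pools at 0 h and 10 h overlapped widely, and pool B at 0 h stood close to those at 24 h. The shares at 36 °C were 48.1%, 78.2% and 55.1% at 10 h and 63.6%, 66.7% and 75% at 24 h, so that both times overlapped.

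cul-3 (NV11526) is a scaffold of ubiquitin ligases, and in Drosophila a testis form of it acts with klhl10 in sperm maturation. Of its 5 models 3 reached the level, and the gene's total hardly moved (-0.08 on the log2 scale from 0 h to 24 h at 25 °C). The paper describes cul-3 as not expressed in the wasp's testis. In these counts its summed level was 72.2, 83.0 and 81.7 CPM at 0 h and 80.7, 77.1 and 72.8 CPM at 24 h at 25 °C. The main transcript (XM_008213343.1) held 80.5%, 61.6% and 67.8% at 0 h and 92.0%, 78.5% and 83.3% at 24 h, with overlap between the pools. The falling transcript (XM_008213345.1) had levels of 8.31, 20.5 and 20.003 CPM at 0 h and 5.11, 10.8 and 7.43 CPM at 24 h. In this gene the low share of the falling transcript in pool A at 0 h, set against 24.7% and 24.5% in the other pools, was the value that made the groups overlap.

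Ndufab1 (NV18155) encodes the mitochondrial acyl carrier protein, a part of respiratory complex I that also serves fatty acid synthesis. The transcripts of its pair moved in opposite directions, by 1.12 and -1.04 on the log2 scale. The rising one (XM_008219690.1) held 7.07%, 8.45% and 5.30% of the counts at 0 h, 9.85%, 16.8% and 18.5% at 10 h and 28.1%, 19.5% and 27.4% at 24 h at 25 °C. Groups of 3 pools did not overlap between any 2 of these times. At 36 °C its share was 5.41%, 18.4% and 4.02% at 10 h, with pool A in the range of 0 h, pool C under it and pool B above it. It was 16.6%, 20.9% and 16.3% at 24 h. The main transcript (NM_001167851.1) held the larger share in all 15 libraries.

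Uqcr11 (NV10906), a small subunit of respiratory complex III, rested on few counts, from 14 for the whole gene in the shallowest pool at 0 h. The rising transcript (XM_008208535.1) held 46.7%, 32.6% and 14.3% at 0 h and 69.7%, 51.5% and 71.9% at 24 h at 25 °C. It held 50%, 61.1% and 55% at 10 h and 76.5%, 62.8% and 81.6% at 24 h at 36 °C. Both times at 36 °C were apart in all pools, by a narrow margin.

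EF-1a (NV13182), a translation elongation factor that brings aminoacyl-tRNA to the ribosome, has 10 models, and its main transcript was outside the pair. That transcript (NM_001172756.1) held 62.3%, 54.1% and 60.0% at 0 h, 54.5%, 48.0% and 55.1% at 10 h and 44.4%, 44.4% and 48.9% at 24 h at 25 °C, so that its share at 24 h was below that at 0 h in all pools. The rising transcript (XM_008209978.1) held 2.64%, 4.79% and 4.48% at 0 h and 10.5%, 12.4% and 10.9% at 24 h. At 10 h at 36 °C it held 2.83%, 12.0% and 2.59%, where pool B again differed from its mates. At 24 h at 36 °C the value was 7.23%, 8.70% and 6.69%. EF-1a genes often come as near-identical copies, and reads shared with such a copy could not be set apart here.

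Of 2 members with chaperone roles, NV15618 corresponds to Drosophila mrj, a DnaJ-type chaperone, and NV15535 to Tpr2, a cochaperone with a J domain. In NV15618 both transcripts of the pair were higher at 24 h than at 0 h at 25 °C, by 1.52 (XM_008208121.1) and 0.42 (XM_008208127.1) on the log2 scale. The latter remained the main one and held 80.2%, 61.9% and 74.6% at 0 h and 66.0%, 64.0% and 62.7% at 24 h at 25 °C. In NV15535 both were lower, by -2.02 for the main transcript (XM_001602353.3) and -0.42 for a minor one (XM_003426281.2). The minor one held 9.49%, 16.9% and 9.89% at 0 h and 18.6%, 19.5% and 14.9% at 24 h, so that the shares overlapped although the levels had moved apart.

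The remaining members with a name were 140up and NV14780, which corresponds to the Drosophila genes CG5103 and CG8036. In 140up, with 8 models, the main transcript (XM_008216835.1) held 61.7%, 78.0% and 60.6% at 0 h, 76.3%, 86.6% and 87.8% at 10 h and 89.6%, 84.8% and 85.5% at 24 h at 25 °C. Its share at 36 °C was 61.2%, 83.5% and 53.8% at 10 h and 70.7%, 80.6% and 88.0% at 24 h. In NV14780 both transcripts had lower levels at 24 h than at 0 h at 25 °C, and the rising one (XM_003425933.2) held 32.7%, 48.6% and 48.0% at 0 h and 65.2%, 66.7% and 71.4% at 24 h at 25 °C. The gene had few counts at 24 h (23, 6 and 14 by pool), so that its shares there were the least precise of the named members.

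**Figure D3:**
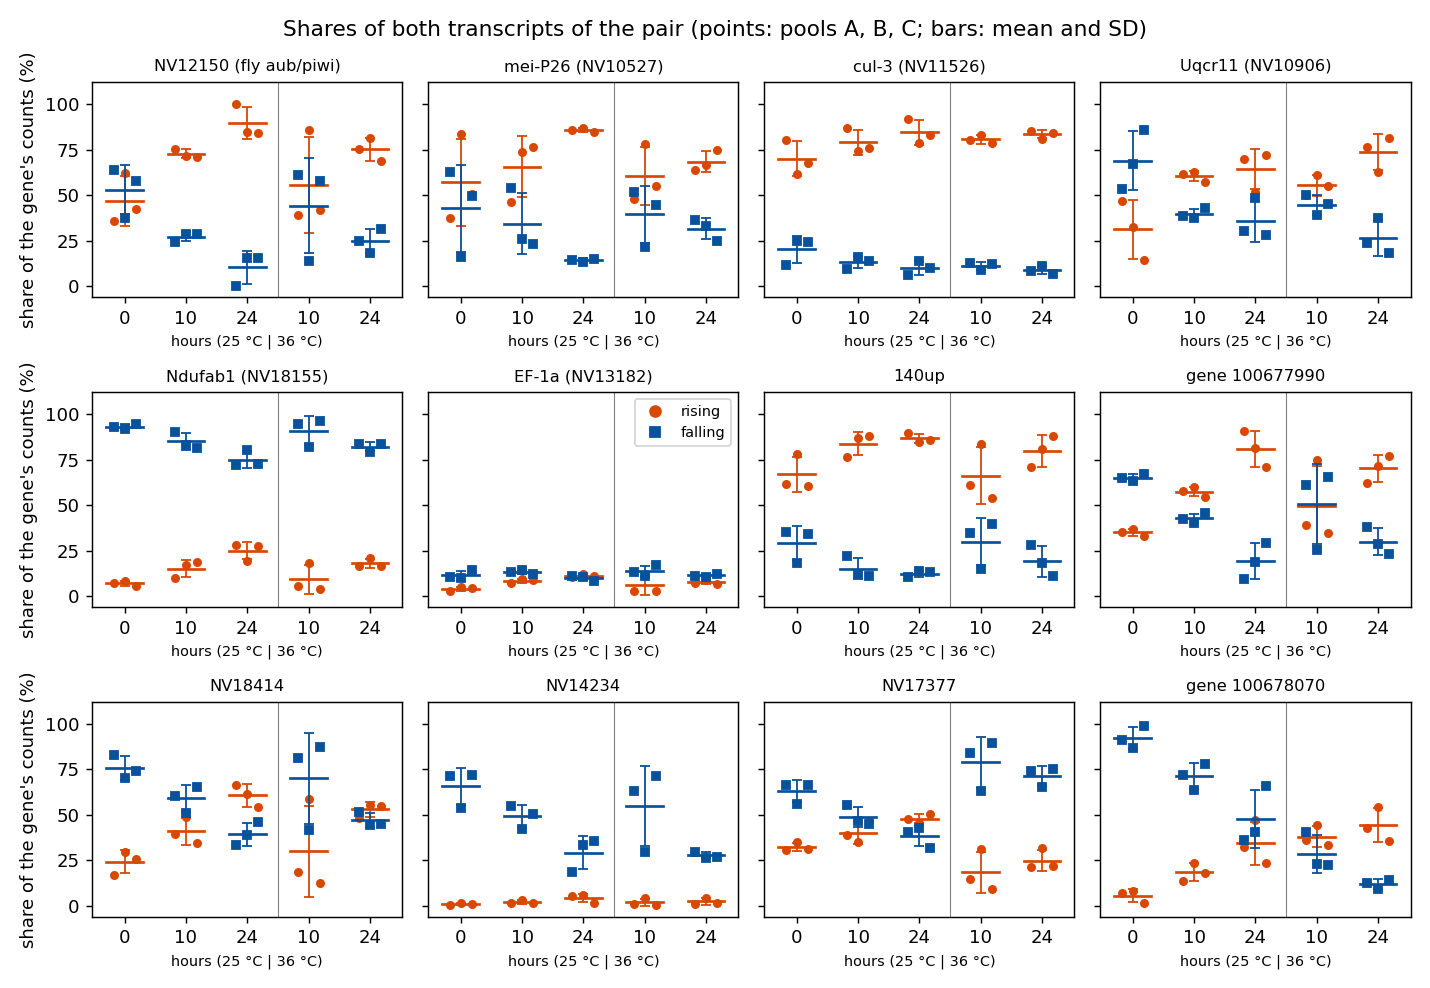
Share of the gene's counts (percent) held by the rising (orange circles) and falling (blue squares) transcript of 12 members, by hours at 25 °C (left of the line) and 36 °C (right). Points are pools A, B and C, and bars are means with SD over 3 pools. In 9 of the 12 panels the mean share of the rising transcript is above that of the falling one at 24 h at 25 °C. In several panels pool B lies apart from its mates at 10 h at 36 °C, as in NV12150 with 39.0%, 85.9% and 42.1%, while in cul-3 the 3 pools lie together.

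Most members carry no descriptive name, and the largest differences were among them. The 10 largest ran from 2.27 (NV10064) to 3.56 on the log2 scale, and included NV13037 (3.35), NV11186 (2.78), NV13150 (2.58), NV15714 (2.47) and NV17396 (2.29). In NV17396 the mean share of no transcript moved by more than 1.45 points, since its rising transcript was a small part of the gene. The top place went to gene 100678070, which the later RefSeq table lists as a long non-coding RNA with no NV number. Its transcript XM_008204217.1 held 90.9%, 86.9% and 98.6% of the counts at 0 h, 72.0%, 63.9% and 78.2% at 10 h and 36.5%, 40.8% and 65.8% at 24 h at 25 °C. The level of that transcript was 41.3, 22.0 and 40.01 CPM at 0 h and 9.42, 8.96 and 9.78 CPM at 24 h. At 36 °C it was lower still, with 2.87, 2.94 and 2.21 CPM at 10 h and 1.59, 0.757 and 1.601 CPM at 24 h. All 6 pools at 36 °C were below all 9 pools at 25 °C.

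In gene 100677990 the 2 models exchanged the larger share. XM_008208039.1 held 35.1%, 36.7% and 33.0% at 0 h, 57.7%, 59.9% and 54.6% at 10 h and 90.7%, 81.2% and 71.0% at 24 h at 25 °C. This change in mean share, 46.0 points, was the largest of the 33 members that had 100 or more counts in every one of the 6 pools of 0 h and 24 h at 25 °C. At 36 °C the same transcript held 39.2%, 74.9% and 34.8% at 10 h and 62.2%, 71.6% and 76.7% at 24 h. The gene's total differed by only -0.09 on the log2 scale between 0 h and 24 h at 25 °C.

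NV14234 and NV15672 were also among both the largest differences and the largest share changes. In NV14234 (5 models), XM_008205140.1 held 71.1%, 53.7% and 72.0% at 0 h and 18.7%, 33.3% and 35.4% at 24 h at 25 °C, while XM_008205142.1 held 28.3%, 44.4% and 27.0% and then 75.8%, 60.96% and 62.7%. The third, XM_008205143.1, was the rising transcript by the rule, with no more than 36 counts in any library. In NV15672 (4 models), XM_008208211.1 held 78.1%, 56.6% and 73.9% at 0 h and 47.7%, 35.8% and 42.9% at 24 h at 25 °C. It held 53.1%, 29.3% and 53.8% at 10 h and 22.3%, 31.1% and 20.8% at 24 h at 36 °C. In both genes pool B at 0 h was the pool nearest to those of 24 h.

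NV18414 had a similar exchange, and the other large share changes were in gene 100678254 (21.0 points), NV14104 (-19.1), Ndufab1 (18.1), NV12131 (17.1), NV11702 (-16.1) and NV13095 (-16.1). Its transcript XM_008205470.1 held 17.2%, 29.8% and 25.7% at 0 h, 39.4%, 48.9% and 34.4% at 10 h and 66.7%, 61.3% and 54.1% at 24 h at 25 °C. It held 18.6%, 58.5% and 12.8% at 10 h and 48.5%, 55.5% and 54.8% at 24 h at 36 °C. Apart from pool B, the 10 h pools at 36 °C were thus lower than all pools of 10 h at 25 °C.

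The limit of 1 cut through a run of close values. Just inside it were NV50866 (1.03) and NV14673 (1.01), and just outside NV16178 (0.999), NV11512 (0.989) and NV15572 (0.983).

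The same pairs were then followed in libraries that took no part in the choice, at 24 h against 10 h at 36 °C. In 83 of 87 members the pair difference had the direction seen at 25 °C, with a median of 0.86 on the log2 scale (range -0.61 to 2.38). Over all 317 genes with 2 or more transcripts at the level 74.8% (237) had that direction, with a median of 0.43, and over the 230 others it was 154, with a median of 0.30. A difference of at least 1 was reached by 32 members and by 15.8% of all 317. The exceptions were NV14241 (-0.61), NV17413 (-0.15), NV17727 (-0.11) and NV14097 (-0.03). The pair share was higher in all 3 pools at 24 h than in all 3 at 10 h in 17 members (19.5%), against 15.5% of the 317, and lower in all pools in 0 members, against 4.42%. These counts include pool B at 10 h at 36 °C, the highest of its 3 pools in 76 of 87 members. They were not made without it.

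Without pool B at 10 h at 36 °C, 83 members again had the direction seen at 25 °C, and the median was 1.04. Without pool A or pool C of that group in its place, the count was 73 and 70, with medians of 0.43 and 0.44. Leaving out 1 of the 24 h pools at 36 °C gave 79 to 82 members.

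**Figure D4:**
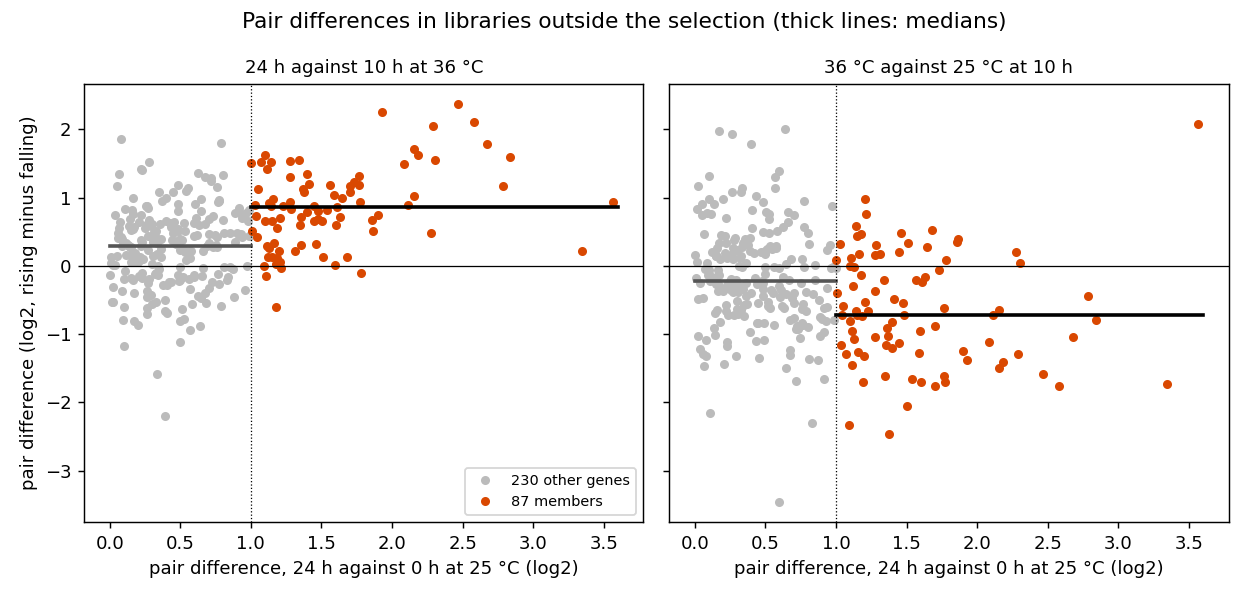
Pair difference (log2 ratio of the rising minus that of the falling transcript) at 24 h against 10 h at 36 °C (left) and at 36 °C against 25 °C at 10 h (right), against the difference at 25 °C that chose the members (dotted line at 1). Orange points are the 87 members and grey points the 230 other genes, with thick lines at the medians. On the left 83 orange points lie above 0 with a median of 0.86, and on the right 63 lie below 0 with a median of -0.71.

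The test of usage, which asks whether a gene's transcripts changed unequally (edgeR's quasi-likelihood test, Benjamini-Hochberg adjusted over all genes tested), called 0 of 475 genes at 24 h against 10 h at 36 °C (0%), and 0 of the 84 members tested. At an unadjusted p under 0.05 there were 47 genes, 15 of them members, and limma's voom also called 0. For the levels of single transcripts, edgeR's quasi-likelihood test called 0 of 8312 (0%), with 1341 at an unadjusted p under 0.05. DESeq2 called 62 for level.

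Without pool B at 10 h at 36 °C, edgeR's usage test called 108 of 421 genes (25.7%) and 51 of the 85 members tested. Leaving out any other library of this comparison gave 0. Both transcripts of the pair were tested in 78 members, of which 48 were called, and in all 48 the estimate was higher for the rising transcript than for the falling one, by 0.81 to 2.79 on the log2 scale. The pool left out stood apart partly by the quantity tested, with the highest pair share of its group in 76 of 87 members. Leaving it out thus moves estimates toward the rising transcript in most members, and their direction is a description. For transcript levels the count without the pool was 3764 of 7903 (47.6%), with 103 of 203 transcripts of members, 70 higher and 33 lower at 24 h.

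Among the members with a known role, Ndufab1, EF-1a, NV12150, Uqcr11 and NV15618 passed this usage test without pool B, as did 140up and NV14780. Each p is that of the gene, and each estimate is the log2 change (± SE) of 1 transcript relative to its gene. Ndufab1's rising transcript had 1.81 ± 0.29 (edgeR adjusted p 5.4e-05) and that of EF-1a 1.43 ± 0.36 (adjusted p 0.00022). The rising and falling transcripts of NV12150 had 0.94 ± 0.29 and -1.25 ± 0.32 (adjusted p 0.000584). mei-P26 missed the threshold (adjusted p 0.0509), although both of its transcripts fell in level, by 1.07 ± 0.20 (adjusted p 0.00142) and 2.02 ± 0.28 (adjusted p 0.00027). The adjusted p was 0.221 for cul-3 and 0.7 for Tpr2.

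The members with the lowest p in that test, which were picked after the values were seen, were NV14234 and NV18414. In NV14234 the estimate was 1.08 ± 0.19 for XM_008205142.1 and -1.25 ± 0.19 for XM_008205140.1 (edgeR adjusted p 2.63e-06). In NV18414 it was 1.63 ± 0.24 for the rising transcript and -0.85 ± 0.19 for the falling one (adjusted p 3.19e-06).

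The comparison of 36 °C with 25 °C at 10 h ran the other way in most members, as it did in most of the 317 genes. It sets heated testes beside unheated ones of the same age and stage label. In 63 of 87 members (72.4%) the pair difference was opposite to that of 24 h over 0 h at 25 °C, against 64.7% of all 317 genes. The median was -0.71, against -0.28 over the 317 and -0.22 over the 230 others. It was -1 or lower in 32 members, against 18.3% of the 317. The pair share was lower in all 3 pools at 36 °C in 8 members (9.2%, against 12.6% of the 317). It was higher in all 3 in 5 members (5.75%, against 10.7%), so that neither share was above that over the 317. Both counts include pool B at 36 °C, the highest of its 3 pools in 76 of 87 members, and were not made without it. Without pool B at 36 °C the count opposite was 70 and the median -0.87, and without pool A or C of that group 53 and 53, with medians of -0.30 and -0.21. This comparison shares its 36 °C pools with the one above, so that both move with the same pools.

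With all pools, edgeR's usage test at 10 h called 10 of 481 genes (2.08%) and 1 of the 86 members tested, gene 100678070 (adjusted p 0.0318). The estimate relative to its gene was -1.37 ± 0.47 (log2 ± SE) for XM_008204217.1, 1.19 ± 0.52 for XR_511902.1 and 1.53 ± 0.55 for XR_511903.1, none of which passed by itself. Its pools did not overlap: that transcript held 40.4%, 22.8% and 22.2% of the counts at 36 °C and 72.0%, 63.9% and 78.2% at 25 °C. Whether the pool letters pair the libraries of this comparison is not stated. With the letter as a block the adjusted p was 0.0783, so that the call was lost and 0 members passed. It was also lost (0.0585 to 0.249) without any single library other than pool B at 36 °C, without which it was 0.0299. Leaving out any of those other 5 libraries gave 1 to 4 genes over the whole table. The counts at 36 °C were small (19, 21 and 4).

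For levels at 10 h, 47 of 8252 transcripts (0.57%) passed edgeR's test, with 38 higher and 9 lower at 36 °C, and 2 of 210 transcripts of members. XM_008204217.1 of gene 100678070 fell by 3.04 ± 0.39 on the log2 scale (adjusted p 0.0133). XM_003427885.2 of NV17377 was higher by 1.601 ± 0.27 (adjusted p 0.0456), with 51.1, 32.1 and 48.1 CPM at 36 °C against 11, 16.4 and 14.9 at 25 °C. With the pool letter as a block 195 transcripts passed, 4 of them of members, and both calls held (adjusted p 0.00348 and 0.0205). They depended on single libraries. The adjusted p of XM_008204217.1 ran from 0.0654 to 0.145 without pool A, B or C at 25 °C or pool A at 36 °C, each of which ended the call. That of XM_003427885.2 ran from 0.0904 to 0.29 without any library other than pool B at 36 °C. Over the whole table, leaving out any library but that pool gave 0 to 31 transcripts. In NV17377 that transcript held 83.9%, 62.8% and 89.7% of the counts at 10 h at 36 °C and 74.0%, 65.1% and 75% at 24 h, above all pools at 10 h and 24 h at 25 °C (32.0% to 55.2%). It is the falling one, and the 0 h pools were closer. The pair share of the rising one was 31.5%, 38.3% and 31.8% at 0 h. At 36 °C it was 14.8%, 33.1% and 9.38% at 10 h and 22.4%, 32.6% and 22.5% at 24 h, with overlap at both times.

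Without pool B at 36 °C, 62 of 473 genes (13.1%) passed the usage test at 10 h, and 25 of 86 members. In 23 of these 25 the estimate was higher for the falling transcript, and the exceptions were gene 100678070 and NV13613. Pool B at 25 °C, which shares the letter, stayed in this fit. It had the highest pair share of its 3 pools in 51 of 87 members, and the pool left out in 76. Leaving out only the latter moves estimates toward the falling transcript in most members, so that their direction is a description. Levels passed for 2059 of 8263 transcripts (24.9%), with 63 of 210 of members, 20 higher and 43 lower at 36 °C. In 140up the falling transcript (XR_512969.1) had an estimate of 1.29 ± 0.35 relative to its gene (edgeR adjusted p 0.00877). In Ndufab1 the rising transcript had -1.52 ± 0.42 (adjusted p 0.0165), and NV12150 (adjusted p 0.0331) and NV14780 (adjusted p 0.043) passed too. In NV17377 the rising transcript had -1.77 ± 0.40 (adjusted p 0.00264). cul-3 and NV15618 had adjusted p of 0.971 and 0.945.

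**Figure D5:**
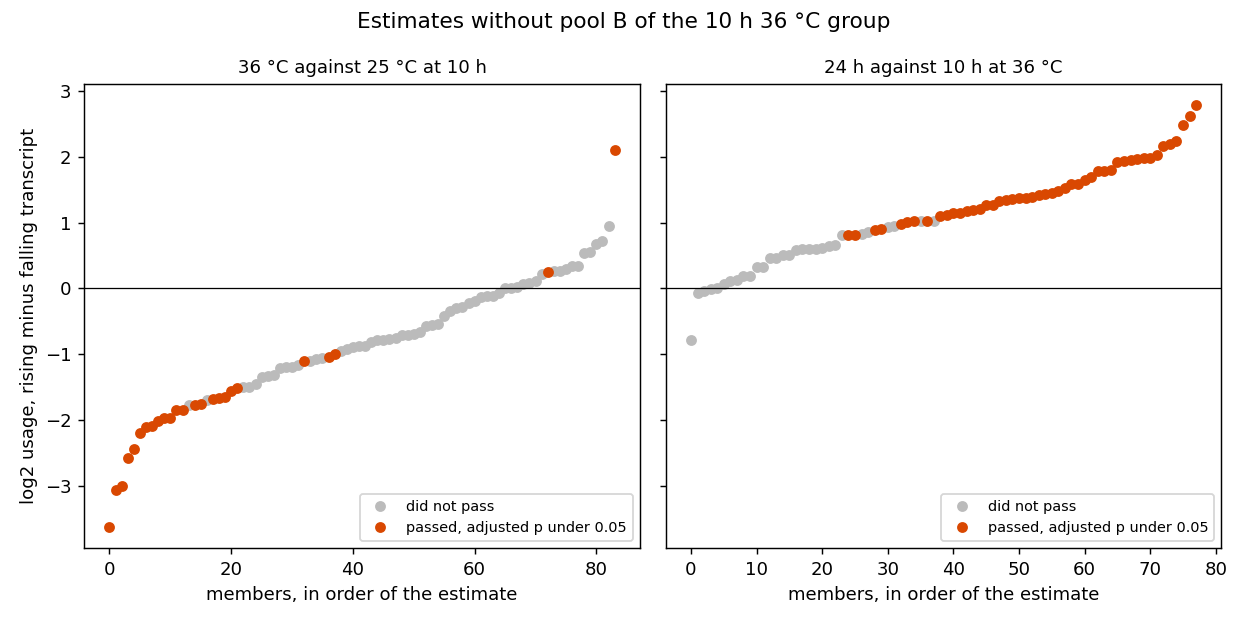
Estimated log2 usage of the rising minus the falling transcript, without pool B at 10 h at 36 °C, for members with both transcripts tested, in order of the estimate. Left, 36 °C against 25 °C at 10 h (84 members, of which 25 passed edgeR's usage test, 23 of them below 0). Right, 24 h against 10 h at 36 °C (78 members, of which 48 passed, all above 0). The pool left out was high in pair share, so that leaving it out itself moves most estimates in these directions.

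Beyond the rule, the members were mostly protein-coding genes. In the later RefSeq table, made for another assembly, 85 of 87 were found, 83 as protein-coding and 2 as long non-coding RNAs. Both models of the pair were coding in 79 members, while the rising one was a non-coding model in 6 and the falling one in 2. The later table still held both models of the pair in 31 members (35.6%) and in 82 of the 230 other genes (35.7%). It held the rising model in 37 members and the falling one in 57. Direction at 24 h against 10 h at 36 °C matched that at 25 °C in 24 of 24 members with neither model kept, 31 of 32 with 1 kept and 28 of 31 with both.

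No 2 members were next to each other in the order of genes of the later assembly. A list of 37 symbols of RNA processing genes matched 7 genes by name. Of these genes 5 had 2 or more transcripts, and 0 had 2 at the level, so that none was a member.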

How the data were processed

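Pools of testes of N. vitripennis were sequenced as paired reads, with a stranded TruSeq kit per the labels and a TruSeq RNA kit per the methods. Reads were aligned by the authors against Nvit_2.1, using TopHat2 (the submitters' notes give 2.1.0). For counting on RefSeq transcripts the methods name htseq-count, whereas featureCounts 1.6.3 stands in the submitters' notes. The authors deposited raw counts of 26279 transcripts in 6 tables, in which all 39 repeated count columns were identical. The 54 columns of normalized values were not used, nor were those of the authors' own comparisons (ratios, log2 ratios and p-values). The depth ran from 1749769 to 7154421 counts per library.

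CPM were counts over the library total. Usage was tested with edgeR 4.0.16 (diffSpliceDGE, gene-level F test) and levels with its quasi-likelihood test (TMM, filterByExpr), each on the 6 libraries of 2 groups, with Benjamini-Hochberg adjustment over all features tested and a threshold of 0.05. Fits were tested on simulated data. With 3 pools against 3 an exact permutation of 1 gene cannot go below 0.1. Alternatives were limma voom, DESeq2, RLE factors, other filters, a block and leaving out each library; those for the pair direction at 10 h were chosen after seeing the data. R 4.3.3, Python 3.11.15 and matplotlib 3.10.9 were used. Names came from a RefSeq table of Nvit_psr_1.1 (11605 gene IDs matched) and the paper's orthologs. The order of genes in that table served to look for neighbouring members, and none of its coordinates is printed.

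Pool letters were checked as pairs: deviations from the group means correlated by 0.416, 0.584 and 0.264 for A, B and C between both temperatures at 10 h, above 0.1 in each, and by 0.441, 0.181 and -0.334 between both times at 36 °C. At 10 h, pool A at 36 °C also correlated by 0.291 with pool C at 25 °C, and pool C at 36 °C by 0.222 with pool A. Pool B with A or C gave -0.562 to -0.282. The values thus do not set A and C apart as pairs.

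Members and lists were chosen with earlier results of these data known. Named genes were the 10 largest differences, the 10 largest share changes among members with 100 or more counts in all 6 pools of the rule, members with a name, the members called with the lowest p, and the 3 genes on each side of the limit. A result of 1 member among these is not reported here.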

Additional observations from a re-analysis of the deposited data

How the results depend on the processing

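Pool B at 10 h at 36 °C carried most of the dependence on single libraries. Leaving out each library in turn, the genes called for usage ranged from 1 to 62 at 36 °C against 25 °C at 10 h (members 0 to 25) and from 0 to 108 at 24 h against 10 h at 36 °C (members 0 to 51). Transcripts called for level ranged from 0 to 2059 (members 0 to 63) and from 0 to 3764 (members 0 to 103). The highest value is in each case the one without pool B at 10 h at 36 °C, and the cause was not tested. At 10 h, usage calls numbered 4 with Simes' p, and 5 both without a filter and with at least 10 counts in each library, and all these as well as limma voom and the replicate block called 0 members. Levels at 10 h numbered 207 by DESeq2 (members 6), 183 without a filter and 195 with the replicate block (members 4). At 36 °C, usage numbered 1, a member, with at least 10 counts in each library, and levels 62 by DESeq2 (members 4) and 7 without a filter. The pools at 36 °C share only letters between times, and the replicate block called 0 genes and 0 transcripts there. The rule found 40 members at a minimum of 10 CPM and 191 at 2 CPM. It found 68 with means in place of medians, of which 61 were shared, 97 with a pseudocount of 0.5, 87 with TMM factors (75 shared) and 67 to 100 with 1 library left out. The pair directions kept their sign of the median under every alternative run: medians were 0.43 to 1.04 at 36 °C and -0.87 to -0.21 at 10 h with 1 library left out. Gene 100678070 kept its usage call with RLE factors (adjusted p 0.0408) and without pool B (0.0299), and lost it in the other 9 alternatives (0.0585 to 0.624). The depth of the shallowest pools limits shares of genes with few counts to intervals of up to ±36.7 points.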
